A study of Danio rerio with 4 samples.

Results

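The mitochondrial ribosomal protein genes encode the protein parts of the ribosome that works inside mitochondria, the mitoribosome. They were taken as every gene whose symbol, in lower case, begins with mrpl or mrps followed by a digit, which gave 75 of the 32520 genes in the count table. All 75 were compared between adult zebrafish ovary and testis. The symbols mrpl50, mrpl55 and mrps36 were looked for and not found in the table, and they were not analysed here.

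The libraries came from gonads of adult zebrafish of the AB laboratory strain, with 1 fish per library. Ovaries of 2 females and testes of 2 males were sequenced, and all 4 fish were null controls, without exemestane (an inhibitor of aromatase, the enzyme that makes oestrogen) and without its solvent DMSO. The comparison addressed how the transcriptome differs between the sexes in untreated fish. Whole gonads were used, so each library mixes germ cells of several stages with somatic cells. In such bulk samples, fewer cells of a type and less RNA per cell cannot be told apart.

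Mitochondria keep a small genome that encodes core proteins of the respiratory chain and the ribosomal RNAs of their own ribosome. Every protein of the mitoribosome is encoded in the nucleus, made in the cytosol and imported. The large subunit, whose genes are named mrpl, holds the site where peptide bonds are formed, and the small subunit, mrps, decodes the mRNA. Many of these proteins have a counterpart in the bacterial ribosome, and others were added during the evolution of mitochondria. Oocytes gather large numbers of mitochondria that are passed on to the embryo, whereas sperm carry few. The roles given here are those known from human mitoribosomes or from bacteria.

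The deposited counts summed to between 11554811 and 26137839 per library, with both ovaries above both testes. The markers set the tissues apart as labelled: 6 oocyte and egg genes gave a sum of 3645 and 2785 CPM in ovary against 32.2 and 37.4 CPM in testis, where CPM is read counts per 1000000 counts of a library size scaled by edgeR's TMM method. The 8 testis markers found in the table came to 265 and 186 CPM in ovary against 4189 and 3541 CPM in testis. Of these, tekt1, a protein of sperm tail microtubules, had 0 counts in both ovaries, and dmrt1, a regulator of the male gonad, had 631 counts in ovary replicate 1 and 12 in ovary replicate 2. Most of the ovary sum of these markers came from piwil1, with 3979 and 2271 counts in the ovaries against 22892 and 26023 in the testes. The zygote arrest gene zar1 had 61 and 6 counts in the testes. Markers of blood (3 of 6 found) reached 2.06 and 5.78 CPM in ovary against 14.4 and 13.8 CPM in testis. Liver markers (4 of 5 found) ran from 1.34 to 4.76 CPM in the ovaries and from 5.94 to 23.4 CPM in the testes, and muscle markers (2 of 5 found) from 1.88 to 2.54 CPM and from 5.81 to 10.0 CPM. No marker of these 3 tissues was at 0 in any library, and their part in the results below was not tested.

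Genes of the mitoribosome were higher in ovary than in testis as a group. Of the 75 genes, 56 (74.7%) passed edgeR's quasi-likelihood test at an adjusted p under 0.05 as higher in ovary (were called), where 28.5% of the 21815 genes tested did. None passed as higher in testis, where 36.7% of all tested genes did, and 19 did not pass in either direction. The count of 0 for testis was also 0 at an unadjusted p under 0.05 and with DESeq2's Wald test. Their median log2 fold change, testis minus ovary, was -1.70, a level 3.25-fold higher in ovary, with quartiles of -2.25 and -1.26 and a range from -3.57 (mrps6) to 0.23 (mrpl33), against a median of 0.45 over all tested genes. All 75 genes passed the filter on low counts and the lowest count of any of them in any library was 12, so none rested on a group without reads.

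In each library the 75 genes together took 0.186% and 0.211% of all counts in the ovaries and 0.110% and 0.103% in the testes. On the TMM scale their levels summed to 2578 and 2565 CPM in the ovaries, which was 2571 ± 9.69 CPM (SD, n = 2), and to 831 and 811 CPM in the testes, which was 821 ± 14.1 CPM (SD, n = 2). The sexes did not overlap on either scale. Both ovaries lay above both testes for 69 of the 75 genes, whereas 36.6% of all tested genes had that order. The 6 genes with overlapping sexes were mrpl11, mrpl33, mrpl38, mrpl39, mrps21 and mrps25.

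**Figure D1:**
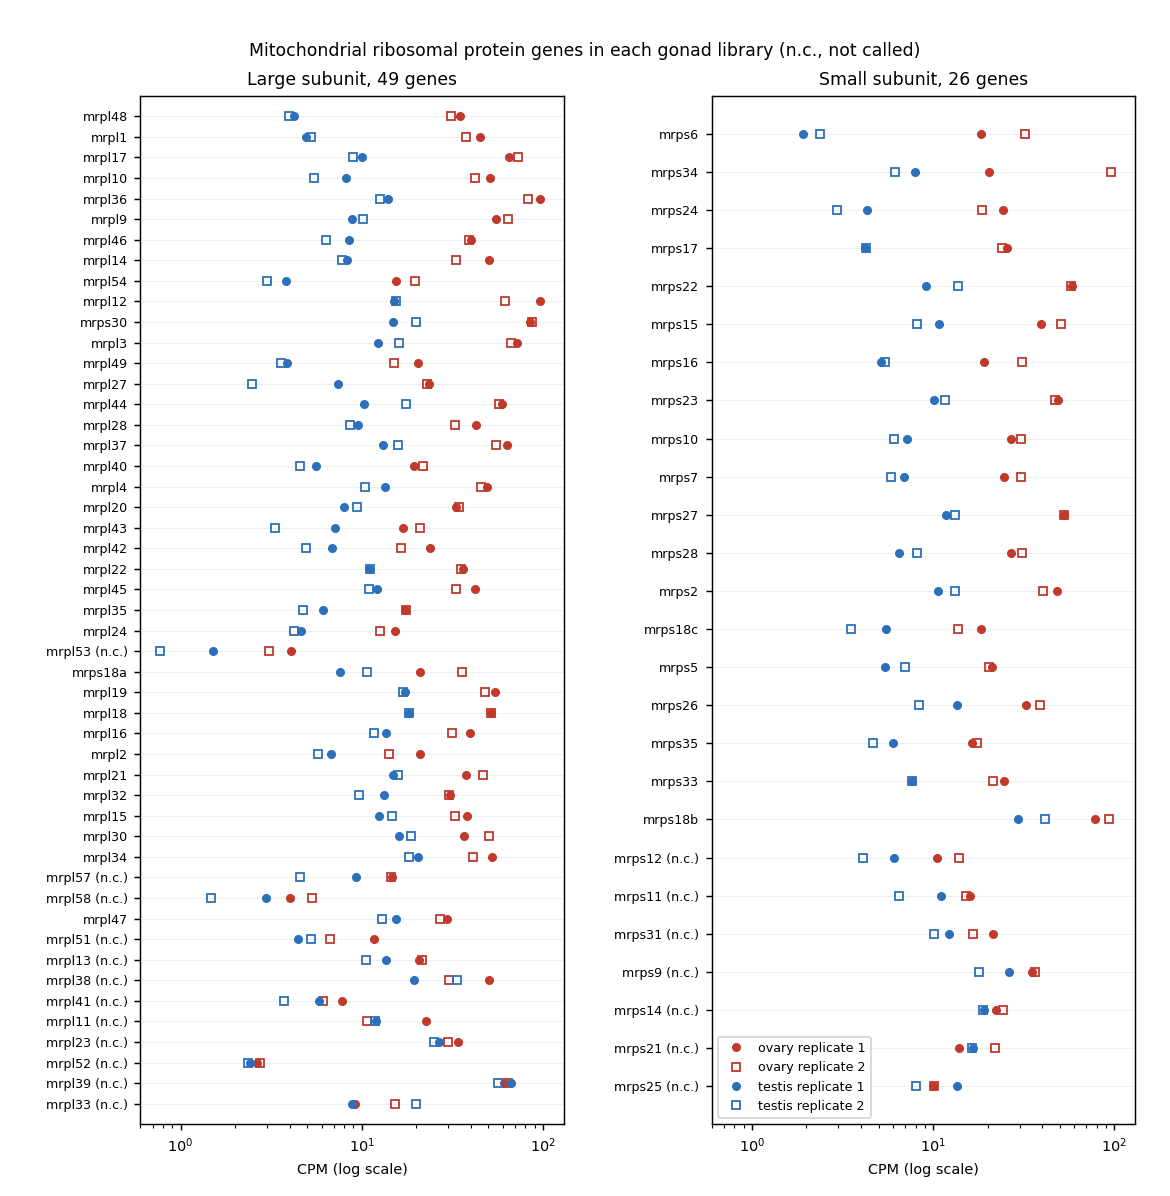
Level of each mitochondrial ribosomal protein gene in each of the 4 libraries, in CPM on a log axis, with large subunit genes on the left, small subunit genes on the right and genes ordered by fold change. Circles are replicate 1 and squares replicate 2; the red ovary points lie to the right of both blue testis points for 69 of the 75 genes, and n.c. marks the 19 genes that did not pass edgeR's test.

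The gene with the largest fold was mrps6, whose protein is the counterpart of bacterial ribosomal protein S6 on the platform of the small subunit. It was read at 18.5 and 32.3 CPM in ovary against 1.9 and 2.36 CPM in testis, and the lower ovary was several times above the higher testis. This is an 11.8-fold difference (log2 fold change -3.57 ± 0.46, edgeR adjusted p = 0.00127, with SE after the ± sign throughout). For mrps34, which encodes a small subunit protein found in mitochondria and not in bacteria and is a human disease gene, the ovaries were far apart. They gave 20.3 and 95.9 CPM and the testes 7.94 and 6.13 CPM, a gap between the ovary replicates of more than 2 on the log2 scale that no other of the 75 genes showed within a sex. The fitted fold of 8.25 (log2 fold change -3.04 ± 0.71, edgeR adjusted p = 0.0107) therefore rested largely on ovary replicate 2, and without that library the log2 fold change was -1.61 (edgeR adjusted p = 0.0339).

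In the large subunit mrpl48, of the central protuberance, the knob that faces the small subunit, was read at 35 and 31.2 CPM in ovary against 4.2 and 3.96 CPM in testis and was 8.1-fold higher in ovary (log2 fold change -3.02 ± 0.32, edgeR adjusted p = 0.000631). The gene mrpl1 encodes the protein of the mobile L1 arm, past which used tRNAs leave the ribosome. Its levels were 44.7 and 37.7 CPM in ovary against 4.92 and 5.24 CPM in testis, again with the replicates of each sex close together, and its fold was also 8.1 (log2 fold change -3.02 ± 0.29, edgeR adjusted p = 0.000502). For mrpl17, a protein near the exit of the peptide tunnel, the ovaries had 64.6 and 73 CPM and the testes 9.97 and 8.94 CPM (7.27-fold, log2 fold change -2.86 ± 0.25, edgeR adjusted p = 0.000352). Among the called genes these and mrpl10 had the largest fitted changes. The gene IDs of the 6 are ENSDARG00000039543 (mrps6), ENSDARG00000057910 (mrps34), ENSDARG00000035167 (mrpl48), ENSDARG00000054606 (mrpl1), ENSDARG00000075677 (mrpl17) and ENSDARG00000045091 (mrpl10).

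The flexible stalk of the large subunit recruits the translation factors that bind GTP. Its base protein mrpl10 had 50.8 and 42.2 CPM in the ovaries, against 8.2 and 5.43 CPM in the testes and was 6.82-fold higher in ovary (log2 fold change -2.77 ± 0.33, edgeR adjusted p = 0.00095). Its partner mrpl12, present in several copies on each stalk in bacteria, had 95.8 and 61.6 CPM in the ovaries against 15.1 and 15.4 CPM in the testes (5.16-fold, log2 fold change -2.37 ± 0.29, edgeR adjusted p = 0.00109). The neighbouring base protein, encoded by mrpl11, had ovary replicates on different sides of the testes. Its ovaries gave 22.7 and 10.7 CPM and its testes 11.9 and 11.8 CPM, so the sexes overlapped and the gene was not called (log2 fold change -0.49 ± 0.44, edgeR adjusted p = 0.361).

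Around the tunnel through which the new protein leaves, mrpl45 serves as the anchor to the inner mitochondrial membrane in human cells. It had 42.2 and 33.1 CPM in ovary against 12.1 and 11 CPM in testis and was 3.25-fold higher in ovary (log2 fold change -1.70 ± 0.28, edgeR adjusted p = 0.00326). Next to it sit the counterparts of bacterial proteins, whose differences were of unequal size. For mrpl22 the ovaries had 36.4 and 35.5 CPM and the testes 11 and 11 CPM (log2 fold change -1.70 ± 0.27, edgeR adjusted p = 0.00261), and for mrpl24 they had 15.4 and 12.6 CPM and 4.59 and 4.22 CPM (log2 fold change -1.67 ± 0.42, edgeR adjusted p = 0.0139). The call for mrpl24 was lost without ovary replicate 1, testis replicate 1 or testis replicate 2, with edgeR adjusted p of 0.0637, 0.0541 and 0.0661. The called gene with the smallest change was mrpl47, at 29.4 and 27.2 CPM in ovary against 15.5 and 13 CPM in testis (1.99-fold, log2 fold change -0.99 ± 0.28, edgeR adjusted p = 0.0226), and its call was likewise lost without any one of these 3 libraries, at edgeR adjusted p of 0.0883, 0.0529 and 0.100. For mrpl23, whose bacterial counterpart lines the tunnel exit, the 4 libraries were closer, with 34.1 and 29.9 CPM in ovary against 26.7 and 25 CPM in testis (log2 fold change -0.31 ± 0.25, edgeR adjusted p = 0.307, not called).

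Of the other parts of the central protuberance, mrpl46 had 40.3 and 39.3 CPM in ovary against 8.53 and 6.32 CPM in testis (5.36-fold, log2 fold change -2.42 ± 0.30, edgeR adjusted p = 0.00113). The counterpart of bacterial L18, mrpl18, had almost equal replicates, 51.7 and 51.5 CPM in the ovaries, against 18.2 and 18.3 CPM in the testes (2.83-fold, log2 fold change -1.50 ± 0.23, edgeR adjusted p = 0.00242). For mrpl40 the levels were 19.3 and 21.8 CPM in ovary against 5.58 and 4.53 CPM in testis (log2 fold change -2.02 ± 0.37, edgeR adjusted p = 0.00444). All of these were called, but mrpl38 was not: its ovaries spanned 50.7 and 30.4 CPM and its testes 19.4 and 33.3 CPM, with testis replicate 2 above ovary replicate 2 (log2 fold change -0.62 ± 0.38, edgeR adjusted p = 0.189).

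Several genes for proteins of the catalytic core were called. mrpl3, a human disease gene, had 72.1 and 66.7 CPM in ovary against 12.3 and 16.1 CPM in testis (4.89-fold, log2 fold change -2.29 ± 0.25, edgeR adjusted p = 0.000771). For mrpl27, the counterpart of the bacterial protein that reaches towards the catalytic centre, the ovaries agreed and the testes did not, at 23.6 and 22.9 CPM against 7.41 and 2.49 CPM. Its call (log2 fold change -2.23 ± 0.56, edgeR adjusted p = 0.0138) was lost without ovary replicate 1, at an edgeR adjusted p of 0.0679. mrpl2 encodes another protein of this core, and its levels were 21.1 and 14 CPM in ovary against 6.76 and 5.75 CPM in testis (log2 fold change -1.49 ± 0.40, edgeR adjusted p = 0.0185). This call was lost without ovary replicate 1, testis replicate 1 or testis replicate 2, with edgeR adjusted p of 0.0988, 0.0550 and 0.0815. The large subunit protein mrpl44, related to an RNA-cutting enzyme and mutated in human heart muscle disease, had 59.8 and 56.9 CPM in the ovaries, against 10.2 and 17.6 CPM in the testes (4.19-fold, log2 fold change -2.07 ± 0.32, edgeR adjusted p = 0.00261).

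Within the small subunit, mrps22, a human disease gene, had 58.2 and 57.6 CPM in ovary against 9.19 and 13.7 CPM in testis, with both ovaries several times above both testes (5.05-fold, log2 fold change -2.34 ± 0.29, edgeR adjusted p = 0.00114). In bacteria the counterparts of mrps7, mrps15 and mrps17 bind the ribosomal RNA early in assembly. For mrps17 the ovaries had 25.6 and 24.1 CPM and the testes 4.2 and 4.28 CPM (5.84-fold, log2 fold change -2.55 ± 0.34, edgeR adjusted p = 0.0015). For mrps15 the values were 39.7 and 50.9 CPM and 10.8 and 8.18 CPM (log2 fold change -2.26 ± 0.30, edgeR adjusted p = 0.00145), and for mrps7 they were 24.6 and 30.6 CPM and 6.89 and 5.88 CPM (log2 fold change -2.11 ± 0.33, edgeR adjusted p = 0.00265). In all 3 genes both ovaries lay above both testes, as in 69 of the 75 genes and 36.6% of all tested genes.

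The decoding protein mrps12 checks the pairing of codon and tRNA in bacteria. It had 10.5 and 13.9 CPM in ovary against 6.1 and 4.09 CPM in testis, without overlap, but it missed the threshold narrowly (log2 fold change -1.26 ± 0.46, edgeR adjusted p = 0.0504). It passed with DESeq2's Wald test (log2 fold change -1.33, DESeq2 adjusted p = 0.0147), with DESeq2 size factors in edgeR (adjusted p = 0.0407), without a filter on low counts (0.0433), with thinned libraries (0.0494) and with scaling to cytosolic ribosomal protein counts (0.0431).

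Vertebrates have 3 genes for relatives of bacterial protein S18. All were called higher in ovary, where 74.7% of the 75 genes and 28.5% of all tested genes were. For mrps18c, the form that takes the bacterial position, the ovaries had 18.5 and 13.8 CPM and the testes 5.51 and 3.51 CPM (3.57-fold, log2 fold change -1.84 ± 0.45, edgeR adjusted p = 0.0126), and the call was lost without ovary replicate 1 or testis replicate 2 at edgeR adjusted p of 0.0718 and 0.0630. mrps18b, one of the 3 genes with the highest mean level among the 75, had 78 and 93.9 CPM in ovary against 29.6 and 41.3 CPM in testis (2.42-fold, log2 fold change -1.28 ± 0.26, edgeR adjusted p = 0.00641). The product of mrps18a sits in the large subunit in human mitoribosomes despite its name, and its levels were 21 and 35.9 CPM in ovary against 7.55 and 10.7 CPM in testis (log2 fold change -1.64 ± 0.40, edgeR adjusted p = 0.0122). Its call was lost without ovary replicate 2 or testis replicate 1, at edgeR adjusted p of 0.0520 and 0.0525. Differences between the fold changes of the 3 genes were not tested.

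The other genes with the highest mean levels were mrps30 and mrpl39, on a CPM scale that is not divided by gene length. For mrps30, also a large subunit protein in human cells despite its symbol, the ovaries had 85.3 and 86.9 CPM and the testes 14.8 and 19.9 CPM (4.95-fold, log2 fold change -2.31 ± 0.25, edgeR adjusted p = 0.000705). In contrast, mrpl39, which encodes a large subunit protein without a bacterial counterpart, had 61.1 and 64.4 CPM in ovary against 66.9 and 56.7 CPM in testis, with the testes on either side of the ovaries. Its fitted difference was -0.02 ± 0.21 on the log2 scale (edgeR adjusted p = 0.933). With library sizes left unscaled this was the one gene of the 75 that passed as higher in testis (log2 fold change 0.72, edgeR adjusted p = 0.0333), so its direction turned with the scaling.

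The 19 genes not called were mrpl11, mrpl13, mrpl23, mrpl33, mrpl38, mrpl39, mrpl41, mrpl51, mrpl52, mrpl53, mrpl57, mrpl58, mrps11, mrps12, mrps14, mrps21, mrps25, mrps31 and mrps9. Of these, mrpl58 encodes a peptidyl-tRNA hydrolase built into the large subunit that frees stalled ribosomes. It had 4.02 and 5.31 CPM in ovary against 2.95 and 1.47 CPM in testis (log2 fold change -1.07 ± 0.63, edgeR adjusted p = 0.174). After their values were seen, mrpl53 and mrpl52 were singled out as the others at a few CPM. For mrpl53 the ovaries had 4.08 and 3.09 CPM and the testes 1.51 and 0.766 CPM (log2 fold change -1.65 ± 0.66, edgeR adjusted p = 0.0657), and for mrpl52 they had 2.65 and 2.76 CPM and 2.43 and 2.36 CPM (log2 fold change -0.17 ± 0.57, edgeR adjusted p = 0.802). Thus mrpl53 had a fitted fold near the median of the 75 genes without being called, and it passed only with scaling to cytosolic ribosomal protein counts (adjusted p = 0.0442), while the values of mrpl52 were nearly equal. The only genes of the 75 with a positive fitted log2 fold change were mrps25 and mrpl33, both with overlapping sexes. mrps25, of the small subunit, had 9.95 and 10.1 CPM in ovary against 13.6 and 8.05 CPM in testis (log2 fold change 0.11 ± 0.43, edgeR adjusted p = 0.839). For mrpl33, a short protein with a bacterial counterpart, replicate 2 was above replicate 1 in each sex, with 9.16 and 15.3 CPM in ovary against 8.79 and 19.9 CPM in testis (log2 fold change 0.23 ± 0.51, edgeR adjusted p = 0.71).

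The difference between the sexes ran through both subunits. Of 49 large subunit genes 37 (75.5%) were called higher in ovary (median log2 fold change -1.69), and of 26 small subunit genes 19 (73.1%) were (median -1.87). The share over all tested genes was 28.5%. Among the 29 large subunit genes with a bacterial counterpart 25 (86.2%) were called (median -1.67), and among the 20 without one 12 (60%) were (median -1.74). In the small subunit 11 of 16 genes (68.8%) with a bacterial counterpart were called (median -1.94) and 8 of 10 (80%) without one (median -1.68). The split follows the human nomenclature of these proteins. It places mrps18a and mrps18b among those without a counterpart, although they are relatives of a bacterial protein. All 4 medians lay below the 0.45 of all tested genes, and the classes were not tested against each other. The CPM sum of large subunit genes was 2.42 and 1.89 times that of small subunit genes in the ovaries and 2.08 and 2.17 times in the testes, so the balance between the subunits overlapped between the sexes.

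**Figure D2:**
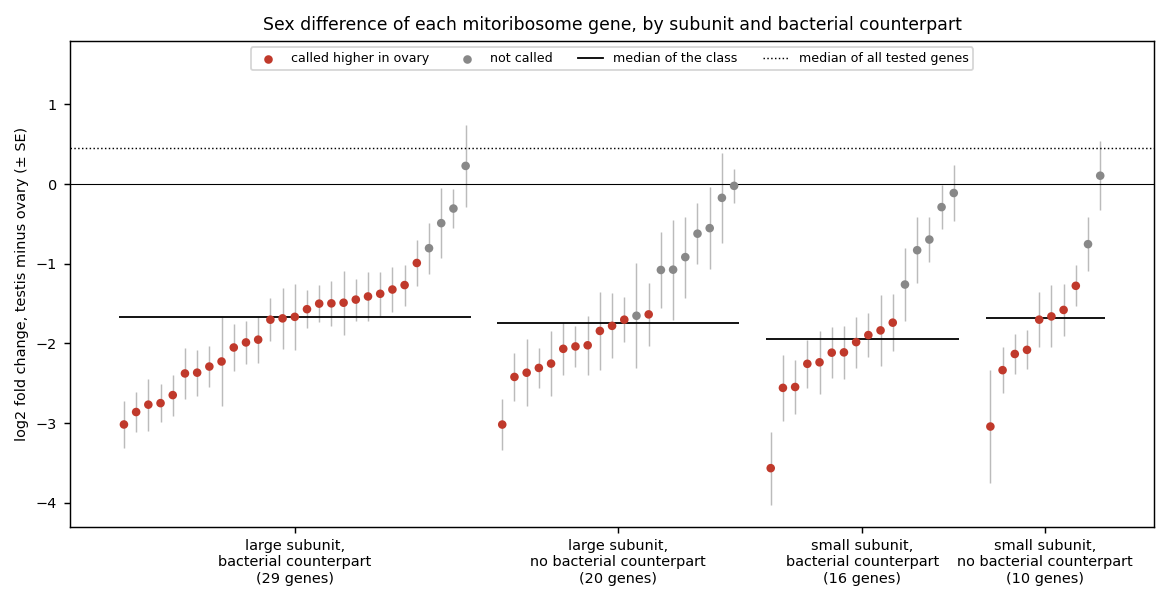
Log2 fold change (testis minus ovary) with its SE for each of the 75 genes, ordered within 4 classes. These were set by subunit and by whether human nomenclature gives a bacterial counterpart. Red points were called higher in ovary by edgeR and grey points were not called; the class medians (horizontal lines) lie between -1.94 and -1.67, below the median of all tested genes at 0.45 (dotted).

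A group of 5 mitoribosome proteins carries no mrp symbol, and 4 of their genes (80%) were called higher in ovary (median log2 fold change -1.58), beside 28.5% of all tested genes. dap3, a small subunit protein that binds GTP and is also known as a cell death factor, had 66.7 and 56.3 CPM in ovary against 13.5 and 12.5 CPM in testis (4.73-fold, log2 fold change -2.24 ± 0.25, edgeR adjusted p = 0.000727). For ptcd3, with RNA-binding repeats, the ovaries had 91.6 and 76.7 CPM and the testes 19.2 and 20.5 CPM (4.24-fold, log2 fold change -2.09 ± 0.23, edgeR adjusted p = 0.000739). For aurkaip1 the values were 60.3 and 69.8 CPM and 21.8 and 21.8 CPM (log2 fold change -1.58 ± 0.23, edgeR adjusted p = 0.00191). These 3 genes had tight replicates and no overlap. chchd1 was at 36.6 and 32.5 CPM in ovary against 15.6 and 16.7 CPM in testis (log2 fold change -1.10 ± 0.26, edgeR adjusted p = 0.0112), a call lost without ovary replicate 1 at an edgeR adjusted p of 0.0533. The large subunit protein gadd45gip1 was at 10.9 and 10.1 CPM in ovary against 9.05 and 6.0 CPM in testis and was not called (log2 fold change -0.48 ± 0.43, edgeR adjusted p = 0.362).

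Of 22 genes for assembly of the mitoribosome and modification of its RNA, 16 (72.7%) were called higher in ovary and 0 in testis. Among all tested genes these shares were 28.5% and 36.7%. The median log2 fold change of the 22 genes was -1.71. The largest differences were those of mpv17l2, needed for assembly in human cells, and of the RNA helicase ddx28. mpv17l2 had 41.9 and 59.3 CPM in ovary against 2.82 and 3.26 CPM in testis (16.6-fold, log2 fold change -4.05 ± 0.33, edgeR adjusted p = 0.000309), and ddx28 had 87 and 61.2 CPM in ovary against 5.25 and 5.17 CPM in testis (14.2-fold, log2 fold change -3.83 ± 0.29, edgeR adjusted p = 0.000268). At the other end mettl17, a factor of small subunit assembly, had 11.5 and 9.68 CPM in ovary against 13 and 19.7 CPM in testis and was not called (log2 fold change 0.62 ± 0.38, edgeR adjusted p = 0.191). The methyltransferase gene tfb1m, which modifies the small ribosomal RNA, was close to equal at 13.5 and 12.4 CPM in ovary against 11 and 11.8 CPM in testis (log2 fold change -0.18 ± 0.35, edgeR adjusted p = 0.664).

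The soluble translation factors of mitochondria were not uniform. Of 12 genes 8 (66.7%) were called higher in ovary and 2 (16.7%) in testis (median log2 fold change -1.43). The shares over all tested genes were 28.5% and 36.7%, so the share for testis was below that of all tested genes. Elongation factor gene tufm, which brings tRNAs to the ribosome, had 135 and 118 CPM in ovary against 32.2 and 39.2 CPM in testis (3.54-fold, log2 fold change -1.83 ± 0.23, edgeR adjusted p = 0.00113), and tsfm, which recharges that factor, had 46.4 and 30.1 CPM in ovary against 5.84 and 6.45 CPM in testis (6.22-fold, log2 fold change -2.64 ± 0.34, edgeR adjusted p = 0.00132). The genes in the opposite direction were an initiation factor and a factor for stalled ribosomes. mtif3, the initiation factor, had 7.57 and 13.2 CPM in ovary against 53.9 and 53 CPM in testis and was 5.14-fold higher in testis (log2 fold change 2.36 ± 0.34, edgeR adjusted p = 0.00189). mtrfr, which helps to free peptides from stalled ribosomes, had 19.5 and 10.6 CPM in ovary against 73.9 and 86 CPM in testis and was 5.31-fold higher in testis (log2 fold change 2.41 ± 0.35, edgeR adjusted p = 0.00191). Both stayed called as higher in testis without each library in turn, and with unscaled library sizes.

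**Figure D3:**
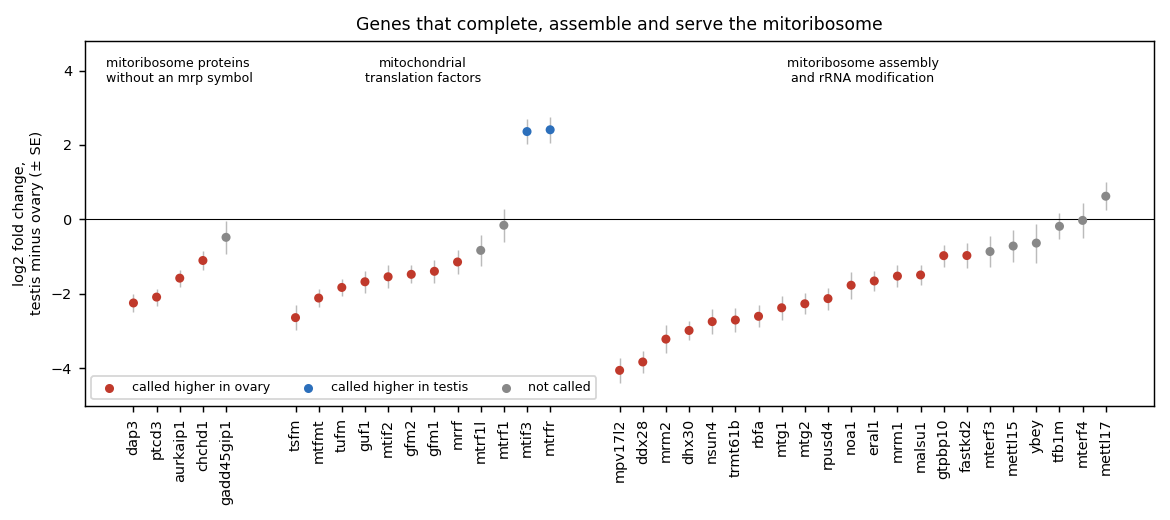
Log2 fold change (testis minus ovary) with its SE for mitoribosome proteins without an mrp symbol (5 genes), mitochondrial translation factors (12) and genes of assembly and rRNA modification (22). Red marks a call for ovary, blue a call for testis and grey no call; mtif3 and mtrfr are the points called higher in testis, at 2.36 and 2.41.

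The enzymes that charge mitochondrial tRNAs followed the direction of the mitoribosome (median log2 fold change -1.19). Of 18 genes, 12 (66.7%) were called higher in ovary and 0 in testis, beside 28.5% and 36.7% of all tested genes. pars2, the enzyme for proline, was at 55.2 and 59.2 CPM in ovary against 5.58 and 7.92 CPM in testis (8.47-fold, log2 fold change -3.08 ± 0.29, edgeR adjusted p = 0.000473). fars2, for phenylalanine, had the reverse order without being called, at 10.1 and 7.73 CPM in ovary against 12.2 and 16 CPM in testis (log2 fold change 0.67 ± 0.39, edgeR adjusted p = 0.176). It was called higher in testis with unscaled library sizes (edgeR adjusted p = 0.0187) and with at least 10 counts in every sample (edgeR adjusted p = 0.0485). Genes for transcription and upkeep of mitochondrial DNA and mRNA were called in both directions: 5 of 14 (35.7%, near the 28.5% of all tested genes) were higher in ovary and 1 (7.14%, below the 36.7% of all tested genes) in testis, with a median of -0.74. The helicase gene supv3l1, of mitochondrial RNA breakdown, had 225 and 178 CPM in ovary against 10.6 and 16.6 CPM in testis (14.8-fold, log2 fold change -3.89 ± 0.32, edgeR adjusted p = 0.000316), and the DNA helicase gene twnk had 118 and 106 CPM in ovary against 18.5 and 19.5 CPM in testis (5.88-fold, log2 fold change -2.56 ± 0.22, edgeR adjusted p = 0.00035). polg, the mitochondrial DNA polymerase, was the gene called higher in testis, at 34 and 23.2 CPM in ovary against 59.8 and 61.3 CPM in testis (2.12-fold, log2 fold change 1.08 ± 0.27, edgeR adjusted p = 0.0128), but not without ovary replicate 2 (edgeR adjusted p = 0.0631) or with scaling to cytosolic ribosomal protein counts (edgeR adjusted p = 0.0725). With unscaled library sizes the median of these 14 genes was 0.0213.

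Transcripts of the proteins that the mitoribosome makes come from mitochondrial DNA. The genes of mitochondrial DNA took 0.138% and 0.338% of all counts in the ovaries and 1.30% and 0.744% in the testes. Their protein-coding transcripts reached 1906 and 4107 CPM in ovary against 9854 and 5882 CPM in testis. Of 12 such genes tested, 5 (41.7%) were called higher in testis, near the 36.7% of all tested genes, and 0 in ovary (median log2 fold change 1.39). For mt-atp6, a subunit of ATP synthase with the largest change, the ovaries had 21.3 and 34.7 CPM and the testes 227 and 35.3 CPM (4.68-fold, log2 fold change 2.23 ± 0.80, edgeR adjusted p = 0.0481), and testis replicate 1 alone stood apart. mt-nd6, of complex I, had the smallest difference, at 60.8 and 199 CPM in ovary against 199.7 and 238 CPM in testis (log2 fold change 0.75 ± 0.52, edgeR adjusted p = 0.241). None of the 5 calls was kept without testis replicate 1, ovary replicate 1 or ovary replicate 2. In the last case mt-nd3 and mt-nd6 were called instead (edgeR adjusted p = 0.0351 and 0.00892), and without testis replicate 2 the 5 genes and 5 others were called, 10 in all. Leaving the mitochondrial DNA genes out of the total left the share of the 75 nuclear genes at 0.199% in ovary and 0.107% in testis.

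The genes of the cytosolic ribosome, which makes all other proteins of the cell, were mostly not called. Of 78 tested, 1 (1.28%) was called higher in ovary and 13 (16.7%) in testis. Both shares lay below the 28.5% and 36.7% of all tested genes. Their median log2 fold change was 0.39 beside 0.45 for all tested genes. Their summed level was 18581 and 17286 CPM in ovary against 24368 and 17493 CPM in testis, and testis replicate 2 was near the ovaries. The median depended on which library was left out. It was 0.396 without ovary replicate 1, 0.276 without ovary replicate 2 and 0.593 without testis replicate 2. Without testis replicate 1 the median was -0.00676.

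**Figure D4:**
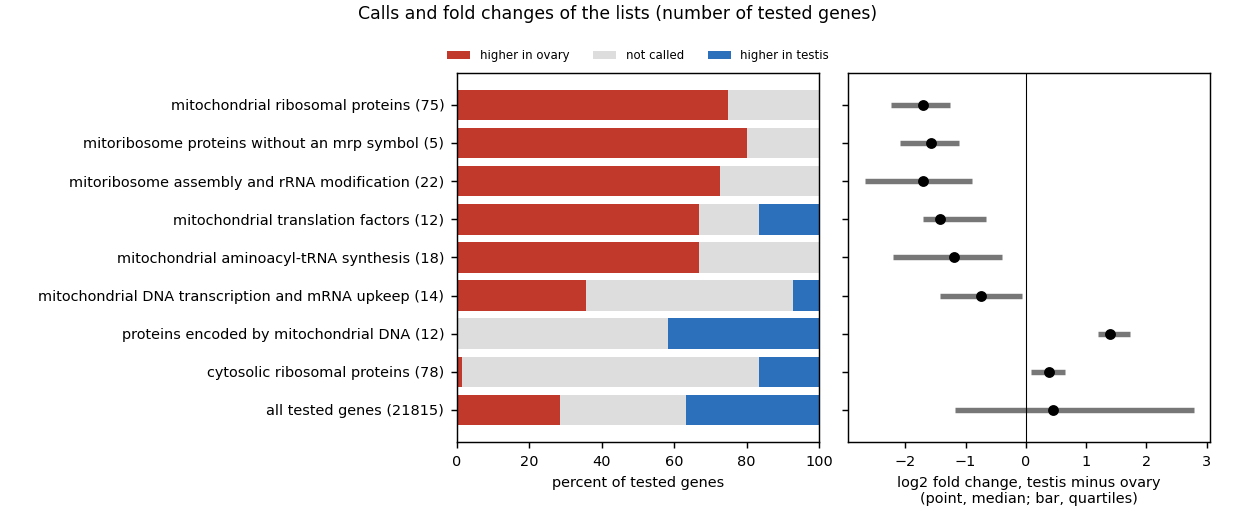
Left, percent of tested genes in each list that edgeR called higher in ovary (red), higher in testis (blue) or in neither (grey); right, the median log2 fold change (point) and quartiles (bar) of each list. The mitochondrial ribosomal proteins reach 74.7% called higher in ovary with a median of -1.70, while all tested genes reach 28.5% with a median of 0.45.

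The genes next to the 75 on the chromosomes were examined as the surroundings of each. In the order of protein-coding genes of RefSeq (its GRCz12tu assembly, newer than the genome used for counting), 103 different neighbours outside the 75 were tested. Of these 53 (51.5%) were called higher in ovary and 19 (18.4%) in testis, beside 28.5% and 36.7% of all tested genes, at a median log2 fold change of -0.81. With unscaled library sizes 27 and 35 were called, where 17.6% and 47.7% of all tested genes were. Among the 56 called genes at least 14 had a neighbour called higher in testis. Many neighbours were not tested or had no symbol match. This held on both sides for mrpl2, mrpl12, mrps5, mrps7, mrps15, mrps16 and mrps23, so the count of 14 is a minimum. The matching share for other genes was not computed. Next to mrpl48 lies dnajb13, a radial spoke protein of the sperm tail, with 2 and 1 counts in the ovaries and 1457 and 1507 in the testes. Next to mrps18a lies rsph9, another radial spoke gene, with 0 counts in both ovaries and 2142 and 2224 in the testes. In the other direction, mrpl43 lies next to twnk, described above as higher in ovary. mrpl46 and mrps11 are neighbours of each other: mrpl46 was called, as given above, and mrps11 was not, with 16 and 15.3 CPM in ovary against 11.1 and 6.51 CPM in testis (log2 fold change -0.83 ± 0.41, edgeR adjusted p = 0.12). In that annotation 12 of the 75 genes overlap the span of a neighbour, mrpl47 with ndufb5 among them. Counting used the stated strand, so values of overlapping genes on 1 strand are uncertain.

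The scalings gave similar numbers of calls, and library sizes left unscaled gave fewer. TMM gave 56 genes higher in ovary and 0 in testis. DESeq2 size factors in edgeR gave 57 and 0. Library size alone gave 36 and 1, beside 17.6% of all tested genes called higher in ovary, and moved the median of all tested genes from 0.45 to 1.19 and that of the 75 genes from -1.70 to -0.96. The median of the 75 genes minus that of all tested genes was -2.15 under both of these scalings. A change of scaling shifts all genes by nearly the same amount, so this difference could hardly have moved. Of the genes named with values above, mrpl2, mrpl24, mrpl27, mrpl47, mrps18a, mrps18b, mrps18c and chchd1 were no longer called with library size alone, at edgeR adjusted p from 0.0724 (mrpl27) to 0.496 (mrpl47), and each kept its negative log2 fold change. With at least 10 counts in every sample mrpl47, mrpl2 and chchd1 were not called, at edgeR adjusted p of 0.144, 0.0616 and 0.0652. Of the 56 calls, 46 held without each of the 4 libraries in turn and 10 were lost without at least one of them, at edgeR adjusted p from 0.0520 to 0.100.

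**Figure D5:**
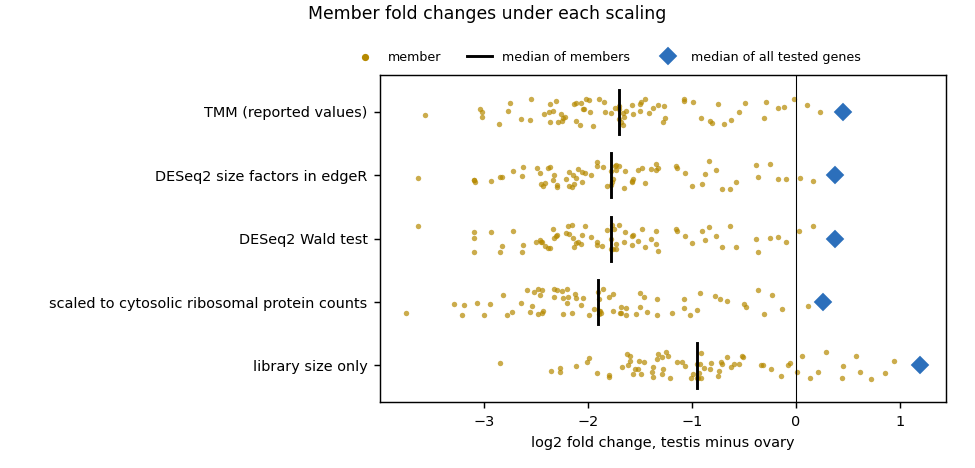
Log2 fold change (testis minus ovary) of each of the 75 genes (points) under 5 ways of scaling or testing, with the median of the 75 genes (vertical bar) and of all tested genes (diamond). Under TMM these medians are -1.70 and 0.45, and with library size alone both lie further towards testis, at -0.96 and 1.19.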

How the data were processed

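RNA was sequenced from gonads of 4 adult zebrafish, 2 females and 2 males. The authors deposited raw read counts per Ensembl gene for these libraries. Per the submitters' processing notes and the methods, reads were checked with FastQC 0.11.8, aligned to GRCz11 with HISAT2 2.0.5, stripped of duplicates with SAMtools 1.5 and counted with HTSeq 0.9.1. Removing duplicates can compress abundant genes. The labels state depletion of ribosomal RNA, whereas the methods describe polyadenylated RNA for adult libraries. The methods count fewer libraries there than the paper has adult samples, so that description may not cover these 4. The levels of mitochondrial transcripts depend on which selection of RNA applies.

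Symbols were found for 29201 of 32520 IDs. In R 4.3.3, edgeR 4.0.16 (filterByExpr, TMM, quasi-likelihood test of testis against ovary, Benjamini-Hochberg adjustment over all 21815 genes tested, threshold 0.05) was the test, on group alone. A positive log2 fold change means higher in testis. SE is the size of the log2 fold change divided by the square root of F. CPM is counts per 1000000 on TMM-scaled library sizes and is not per length. DESeq2 1.42.0 was an alternative. The others were other scalings, other low-count filters, thinned libraries, a replicate block, other thresholds and leaving out each library. The legacy quasi-likelihood fit and the scaling to cytosolic ribosomal protein counts were chosen after seeing the data. The pipeline was tested on simulated data in which few genes changed, in equal numbers up and down. Many genes differ between ovary and testis, so that simulation does not test the scaling under such a shift. The p-values set the difference between the sexes against the spread between 2 fish per sex. edgeR pooled that spread over both sexes and moderated it over all tested genes. Per the methods the fish shared a tank, so the spread holds no difference between tanks. The replicates of each sex differed by more than counting noise (chi-square per degree of freedom 56.7 for ovary, 31.5 for testis), so each counted as 1 sample.

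The genes and lists were chosen with earlier results of these data known. By rule, the text names the 6 called genes with the largest change in each direction without overlap, the 3 of highest mean level, those with a replicate gap over 2 on the log2 scale, mrpl12, mrpl10, mrpl45, mrps12, mrpl58, mrpl44, mrps22, 5 mitoribosome proteins without an mrp symbol and extremes of the other lists. Further genes were named after their values were seen, to complete structural groups. Kinases of the rps6k family and rps19bp1, which the pattern for cytosolic ribosomal proteins also caught, were left out, which gave 80 genes. The RefSeq table is of another build, so no coordinates are given.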

Additional observations from a re-analysis of the deposited data

How the results depend on the processing

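Every alternative kept the negative median of the 75 genes and gave at most 1 gene higher in testis. With library size only, 36 genes were higher in ovary and 1 in testis (mrpl39, log2 fold change 0.72), and the median was -0.96. The median was -1.29 with at least 10 counts in every sample, -1.61 with thinned libraries and -1.90 with scaling to cytosolic ribosomal protein counts, an alternative chosen after seeing the data. The distance from all tested genes depended on the low-count filter. The median of all tested genes was 0.068 with at least 10 counts and 1.09 without a filter. The median of the 75 genes minus it was -1.35 and -2.85. Leaving out each library gave medians of the 75 genes from -1.86 to -1.62. Calls made there assume that the lone library of a sex varies like the other sex. The remaining alternatives gave 47 (adjusted p under 0.01) to 58 genes higher in ovary, where 20.7% to 30.1% of all tested genes were. The count of mitochondrial DNA-encoded genes higher in testis (5) was 0 with the replicate block, without a filter, against a minimum fold of 1.5 and at the stricter threshold of 0.01, 8 with at least 10 counts, 9 with DESeq2 and 10 with library size only. That of cytosolic ribosomal proteins (13) was 57 with library size only, 34 with at least 10 counts and between 4 and 8 with the block, without a filter, with stricter thresholds and with scaling to their own counts, and 3 were higher in ovary with DESeq2, where 30.1% of all tested genes were. Over all tested genes the share higher in testis was 47.7% with library size only, 29.9% with at least 10 counts and 34.2% with DESeq2. It was 24.1% to 34.5% in the other settings named for these lists. With library size only, 23 large subunit genes, 14 of those with a bacterial counterpart, 4 small subunit genes without one, 5 translation factors and 3 genes of mitochondrial DNA upkeep were higher in ovary, and 1 assembly gene (mettl17), 1 tRNA charging gene (fars2) and 2 upkeep genes were higher in testis. Under that scaling 17.6% of all tested genes were higher in ovary and 47.7% in testis. At an adjusted p under 0.01, 35 neighbours were higher in ovary and 12 in testis, beside 20.9% and 24.1% of all tested genes. The median of genes for mitochondrial DNA transcription and upkeep turned to 0.0213 with library size only, and that of cytosolic ribosomal proteins ranged from -0.00676 to 0.593 without 1 library. The causes were not tested beyond what each alternative changes by construction.

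The replicate block gave 56 genes higher in ovary with a median of -1.74 and changed no call among the 75 genes. The labels do not state whether libraries with the same replicate number were handled together. Deviations of same-numbered libraries correlated at -0.03 over 21815 genes. With 2 fish per sex this value cannot show whether they shared a batch. Per the methods, each adult group was kept in a tank of its own, in which a plate with holes separated the sexes. The null-control females and males therefore shared a tank. No promoter or protein sequences were used here, so the planned motif count was not run. With 2 libraries per sex, mrpl53, at a few CPM, had a fold near the median and was not called.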
